A study of Mus musculus with 16 samples.

Results

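InjuryMono1 is 1 of the 46 cell types that the authors named in a single-cell RNA atlas of the mouse transverse colon, and its 659 cells, of 22717 in all, were taken by that deposited name. The study followed 16 female C57Bl/6J mice, 7 weeks old at the start. The injured mice drank 4% dextran sulfate sodium (DSS), a detergent-like polymer that damages the colon lining, for the whole experiment. On day 4 they received 10 mg/kg of SZN-1326-p, an agent that the study's title describes as a Frizzled-specific activator of Wnt signalling, or an antibody to GFP, a protein that these mice do not make, as control. Colons were collected 24 h later, on day 5, or 48 h later, on day 6. There were 3 SZN-1326-p mice and 3 anti-GFP mice at each time, all of them on DSS, and 2 uninjured mice at each time, and each animal was 1 library. Cells were sorted from an epithelial wash and a digested lamina propria fraction, so that proportions hold for the cells recovered.

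Inflammatory monocytes are made in the bone marrow, carry Ly6C on their surface and enter tissue through the chemokine receptor CCR2. In the colon they normally mature, through an intermediate that gains MHC class II, into resident macrophages that clear debris and take up bacteria quietly. During colitis more of them arrive, and the newly arrived cells release IL-1β and chemokines that call in neutrophils. The annotation holds another injury monocyte type, InjuryMono2 (1239 cells), and Macrophage (677 cells). These types, called neighbours below, were chosen for comparison, and their closeness to InjuryMono1 was not measured.

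Of the 659 InjuryMono1 cells, 658 came from the 12 DSS mice, at 18 to 117 cells a mouse. They held 1541 to 22145 UMIs (unique molecular identifiers, each standing for 1 captured RNA molecule), with a median of 9140, and a median of 2626 genes. Their median mitochondrial share was 3.69%. Depth differed between the arms. At 24 h the median UMIs per mouse were 6614, 6733.5 and 8529 in SZN-1326-p mice, against 8611, 8487 and 10649 in anti-GFP mice. At 48 h they were 8628, 9186 and 7169.5, against 10912, 11187 and 12887.5, without overlap. The part of depth in the comparisons of the arms below was not tested. The SZN-1326-p library of mouse 2 at 24 h and that of mouse 3 at 48 h had median mitochondrial shares over all cells of 18.9% and 24.1%, against 5.06% to 11.6% in the other 10 DSS libraries. In the uninjured libraries these shares were 26.1% and 24.1% at 24 h and 19.7% and 19.2% at 48 h. In the SZN-1326-p mouse 1 at 48 h the InjuryMono1 cells held 73.3 UMIs per cell of 10 B and plasma cell markers, against 0.317 to 1.15 in the other 11 mice. Across libraries, 64 cell barcodes occurred more than once, and 6 InjuryMono1 cells carried such a barcode.

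The name fits its markers. Ly6c2, the gene for the Ly6C surface protein (chromosome 15, 75108158 to 75111970, mm10), was seen in 72.0% of InjuryMono1 cells, against 20.7% of InjuryMono2 cells and 0.998% of Macrophage cells. Thinned to 2000 UMIs a cell, which left out 3, 144 and 43 cells, these shares were 44.1%, 10.2% and 0.218%. Il1b, which encodes IL-1β (chromosome 2, 129364570 to 129371139), was seen in 97.9%, 94.7% and 71.9%, and in 95.4%, 92.7% and 63.3% after thinning. In TcellCD8_NK cells, which should lack Il1b, 5.02% held a UMI of it at a median depth of 4771 UMIs (1.90% of thinned cells). Both genes were seen together in 462 of the 658 InjuryMono1 cells of DSS mice (70.2%), and 2 cells held neither.

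S100a8 and Cxcr2 were far below their levels in neutrophils. S100a8, which encodes a calprotectin subunit abundant in neutrophils, averaged 0.607 ± 0.787 normalised UMIs per cell in InjuryMono1, against 429 ± 163 in cells that the authors named ActNeutrophil (SD, n = 12 mice each). Cxcr2, a neutrophil chemokine receptor, averaged 0.0228 ± 0.0323 and 30.1 ± 5.18. Ly6g, the neutrophil surface marker, was above 0 in 5 of 12 mice, never past 0.0235. Of 19 listed neutrophil markers 11 were measured against InjuryMono2, with 4 higher in all 12 mice, 1 lower and a median log2 difference of 1.63, against -0.0439 for all genes. Against Macrophage 5 were higher in all 12 mice and 0 lower. Over all genes 6.82% were higher and 4.24% lower than in InjuryMono2 in all 12 mice. Against Macrophage these shares were 11.6% and 9.52%. Hdc, which makes histamine, was higher than in InjuryMono2 in 12 of 12 mice and stood between 0.537 and 2.31 in InjuryMono1, against 47.8 to 92.6 in ActNeutrophil. The list summed to 6.54 to 17.0 UMIs per cell in InjuryMono1 over the 12 mice. The dendritic cell genes Xcr1 and Clec9a and the resident macrophage genes Timd4 and Lyve1 were at 0 in InjuryMono1 in all 12 mice. Other dendritic cell genes were not. The 12 listed ones summed to 0.481 to 1.88 UMIs per InjuryMono1 cell over the mice. Against InjuryMono2 7 were measured, with 0 higher in all 12 mice and 1 lower (Clec10a). Against Macrophage 8 were measured, with 1 higher (Cd24a) and 1 lower (Batf3). With so few genes measured, these counts do not set the dendritic list apart from all genes.

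InjuryMono1 was almost a cell type of the injured colon alone. Of the 4 uninjured mice, 3 had no InjuryMono1 cell among 87, 125 and 165 immune cells, which allows shares of up to 3.45%, 2.40% and 1.82% (3 cells of the total, counting error only). The remaining one had 1 cell of 122 (0.820%). The 6 anti-GFP mice held 22.3%, 19.2% and 13.7% at 24 h and 17.4%, 26.2% and 14.6% at 48 h, so every injured mouse lay above every uninjured one. On the log2 scale the anti-GFP share was 5.10 higher (two-sided exact permutation within time, p = 0.01, the smallest it allows, adjusted p = 0.0183 over 11 immune types). With 0.5 cell added to every count, the size of that difference rests on the added value in the uninjured mice. Every uninjured library also had a higher median mitochondrial share than every anti-GFP library, and its part in the difference was not tested.

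In SZN-1326-p mice InjuryMono1 made up a smaller part of the immune cells in these mice, but the difference over both times did not pass adjustment. At 24 h the SZN-1326-p mice held 16.2%, 14.7% and 12.5% of immune cells, against 22.3%, 19.2% and 13.7% in anti-GFP mice. The groups overlapped, and the ratio of their geometric means was 0.799 (exact permutation, p = 0.3). At 48 h the SZN-1326-p mice held 8.82%, 6.86% and 5.25%, against 17.4%, 26.2% and 14.6% in anti-GFP mice. These groups did not overlap, and their ratio was 0.369 (exact permutation, p = 0.1, the smallest that 3 against 3 allows). Over both times the SZN-1326-p share averaged 10.7% ± 4.41 and the anti-GFP share 18.9% ± 4.73 (SD, n = 6 each). The log2 difference was -0.88 (two-sided exact permutation within time, p = 0.015, adjusted p = 0.165 over 11 immune types). The change in effect between the times did not pass either (log2 -1.12, exact permutation, p = 0.14).

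**Figure D1:**
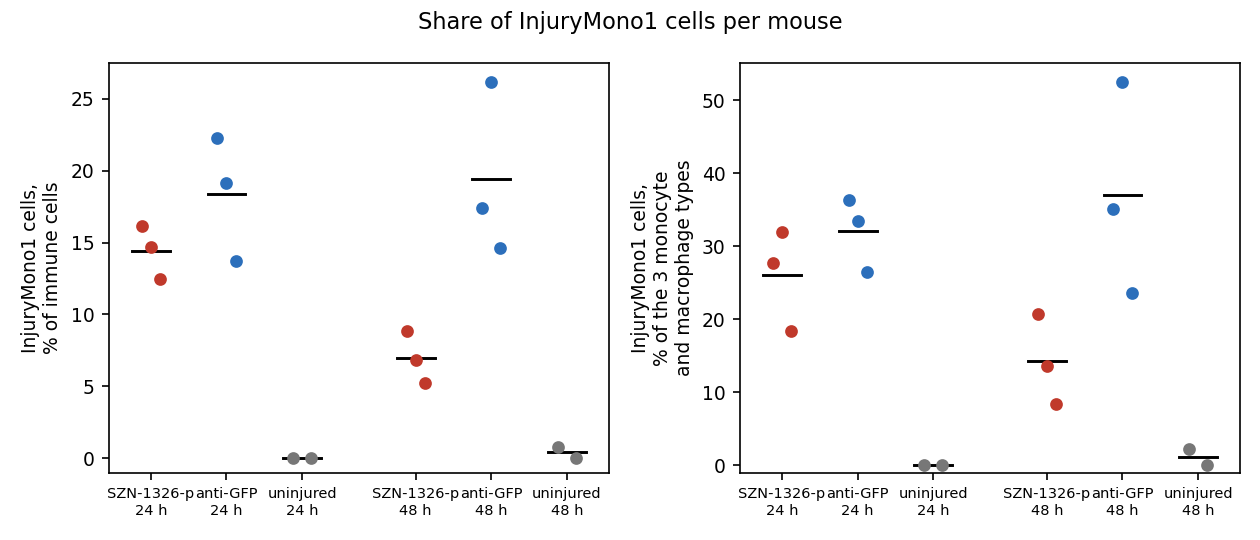
InjuryMono1 cells per mouse as a percentage of immune cells (left) and of InjuryMono1, InjuryMono2 and Macrophage cells together (right), by arm and time. Points are mice and bars are group means. At 48 h the 3 SZN-1326-p mice lie between 5.25% and 8.82% of immune cells, below the 3 anti-GFP mice.

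Among the monocyte and macrophage types alone InjuryMono1 also took a smaller share in SZN-1326-p mice. InjuryMono1 made up 20.2% ± 8.71 of these cells in SZN-1326-p mice and 34.6% ± 10.1 in anti-GFP mice (SD, n = 6 each). This log2 difference of -0.85 passed an adjustment over 3 types only (two-sided exact permutation, p = 0.02, adjusted p = 0.045). Among immune cells the unadjusted p was no larger (exact permutation, p = 0.015), but that test was adjusted over 11 types. The shares of the 3 types also depend on each other, so this pass is no firmer than the result among immune cells. At 48 h the SZN-1326-p mice held 20.8%, 13.7% and 8.45% and the anti-GFP mice 35.1%, 52.5% and 23.6%, and the groups did not overlap. Macrophage took 27.7% ± 4.02 of these cells in SZN-1326-p mice and 17.8% ± 3.36 in anti-GFP mice at 24 h, and 24.0% ± 7.19 in SZN-1326-p mice and 15.9% ± 8.08 in anti-GFP mice at 48 h (SD, n = 3 each). InjuryMono2 took 46.3% ± 4.91 in SZN-1326-p mice and 50.1% ± 2.84 in anti-GFP mice at 24 h, and 61.7% ± 13.3 in SZN-1326-p mice and 47.1% ± 8.55 in anti-GFP mice at 48 h. Its groups overlapped at both times. As a share of all sorted cells InjuryMono1 averaged 2.21% ± 0.999 in SZN-1326-p mice and 6.70% ± 1.92 in anti-GFP mice (SD, n = 6 each; log2 difference -1.69, exact permutation, p = 0.005, adjusted p = 0.0275). The share of all cells also moves with how much epithelium was recovered, and its part in that difference was not tested.

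The next results set InjuryMono1 beside its neighbours gene by gene in the 12 DSS mice. The authors' types were made from the expression of these same cells, so the differences are a description and carry no test. A value is the mean over cells of the UMIs scaled by the authors' size factor. InjuryMono1 was higher than InjuryMono2 in every one of the 12 mice for 6.82% of 8534 genes (582) and lower in every mouse for 4.24% (362). Against Macrophage it was higher in every mouse for 11.6% of 9155 genes (1058) and lower for 9.52% (872). For 227 of 9316 genes the level fell in the order InjuryMono1, InjuryMono2, Macrophage in every mouse, and for 127 it climbed in that order.

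Genes of blood monocyte identity were mostly higher in InjuryMono1. Of 25 listed genes, all measured, 16 were higher than in InjuryMono2 in all 12 mice and 0 lower, with a median log2 difference of 0.81 against -0.04 for all genes. Against Macrophage, 19 were higher and 2 lower. Ly6c2 ranged over the mice from 2.85 through a median of 4.96 to 8.39 UMIs per cell in InjuryMono1, from 0.375 through 0.987 to 1.83 in InjuryMono2, and from 0 through 0 to 0.210 in Macrophage. No mouse of one type overlapped another type. Chil3, which encodes the chitinase-like protein Ym1, averaged 26.5 ± 7.65, 4.15 ± 1.83 and 0.0458 ± 0.113 in the 3 types in that order (SD, n = 12 mice). Plac8 averaged 42.6 ± 11.5, 14.4 ± 6.18 and 0.561 ± 0.322, and Vcan, for the matrix proteoglycan versican, 7.58 ± 4.20, 1.26 ± 0.832 and 0.0788 ± 0.146. Ccr2 differed from this pattern: it averaged 9.70 ± 2.44 in InjuryMono1 and 11.5 ± 1.73 in InjuryMono2, lower in InjuryMono1 in 10 of 12 mice, against 1.04 ± 0.524 in Macrophage. The entry receptor set both injury monocyte types apart from Macrophage, while Ly6c2 and Chil3 also separated the 2 injury types.

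**Figure D2:**
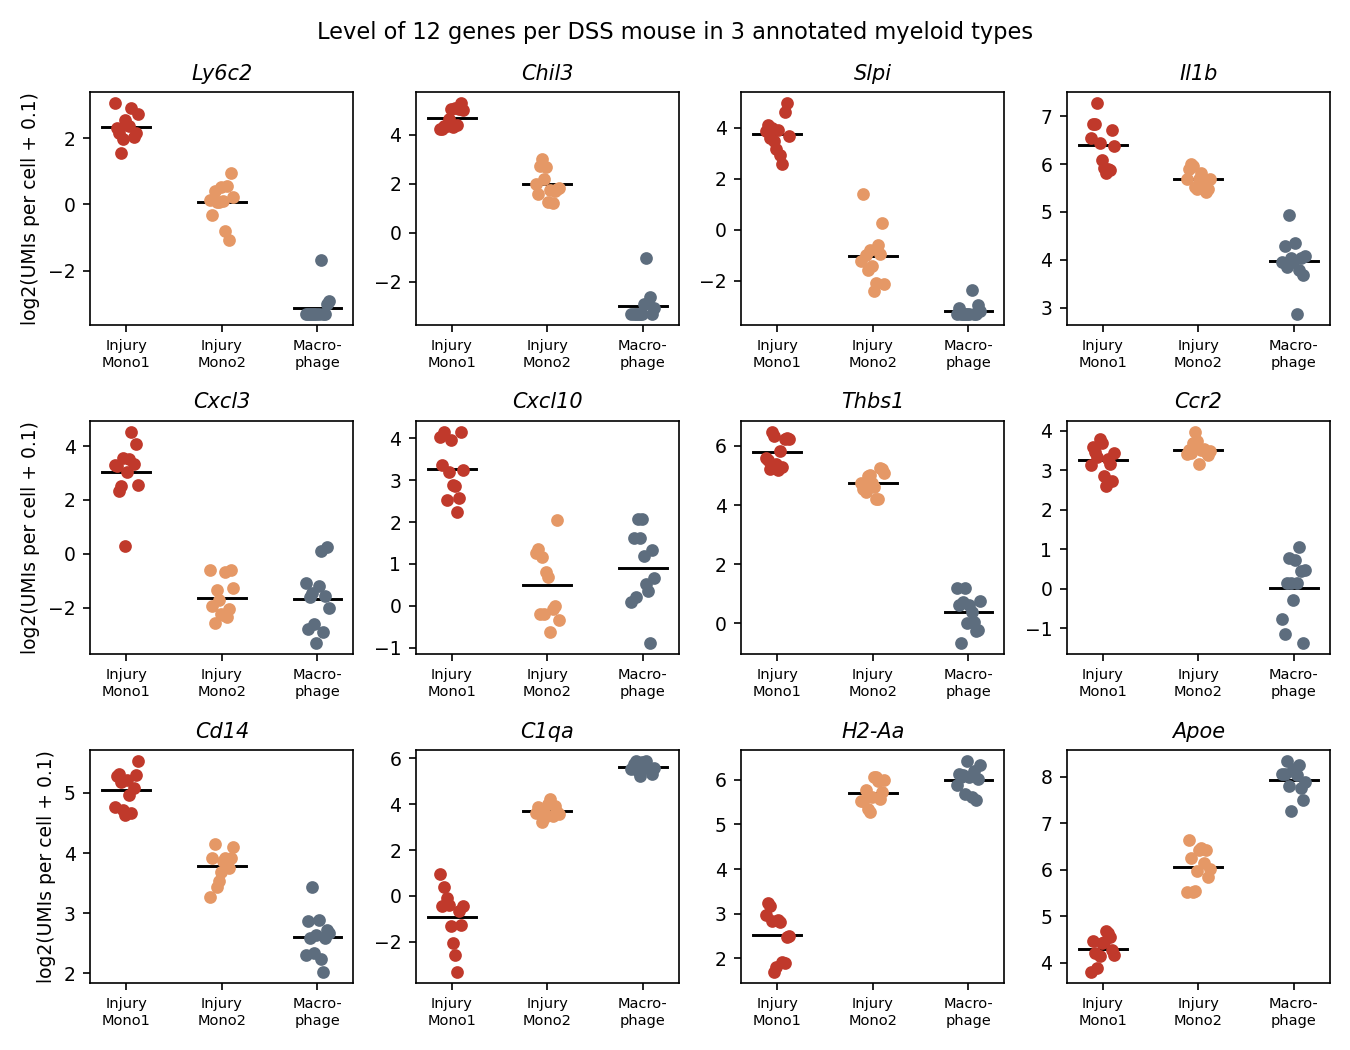
Levels of 12 genes in InjuryMono1, InjuryMono2 and Macrophage, as log2 of mean normalised UMIs per cell plus 0.1, with 1 point for each of the 12 DSS mice and a bar at the mean. Ly6c2, Chil3 and Slpi step down from InjuryMono1 to Macrophage, C1qa and Apoe step up, and Ccr2 overlaps between both injury monocyte types.

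Genes of macrophage maturation ran the other way. Of 22 listed genes, 20 were measured against InjuryMono2 and 17 were lower in all 12 mice, with 0 higher and a median log2 difference of -1.80. Against Macrophage, 20 of 22 were lower. C1qa, which encodes a chain of the complement starter C1q, ranged over the mice from 0 through a median of 0.582 to 1.83 UMIs per cell in InjuryMono1. It ranged from 9.27 through 12.4 to 18.6 in InjuryMono2 and from 37.4 through 47.4 to 59.5 in Macrophage. The 3 types lay in separate ranges. Apoe, a lipid carrier, averaged 20.0 ± 3.75, 69.1 ± 18.4 and 249 ± 50.3, and Mrc1, the mannose receptor, 0.791 ± 0.693, 4.62 ± 1.35 and 11.4 ± 2.80 (SD, n = 12 mice, in the order InjuryMono1, InjuryMono2, Macrophage). Cx3cr1, the fractalkine receptor of resident macrophages, averaged 0.443 ± 0.187, 1.13 ± 0.255 and 6.07 ± 1.66. C1qa was detected with Ly6c2 in 40 of the 658 InjuryMono1 cells and without it in 19, and Ly6c2 was detected without C1qa in 434.

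MHC class II genes, whose products present antigen to CD4 T cells, were mostly lower in InjuryMono1. The list of 14 also holds Cd40, Cd80 and Cd86, which are not class II genes. Of the 14, 13 were measured against InjuryMono2, and 8 were lower in all 12 mice and 1 higher. Against Macrophage 12 were measured, and 8 were lower and 2 higher. H2-Aa ranged from 3.13 through a median of 6.29 to 9.33 UMIs per cell in InjuryMono1, from 38.6 through 50.9 to 66.8 in InjuryMono2, and from 46.6 through 66.6 to 86.0 in Macrophage. InjuryMono2 and Macrophage overlapped each other and neither overlapped InjuryMono1. Ciita, the master regulator of class II transcription, averaged 0.341 ± 0.214, 1.62 ± 0.351 and 1.30 ± 0.357 (SD, n = 12 mice, same order). H2-Aa was seen in 35.3% of InjuryMono1 cells, 92.3% of InjuryMono2 cells and 4.30% of TcellCD8_NK cells. Thinned to 2000 UMIs these shares were 23.7%, 92.0% and 2.66%.

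Cytokines of the IL-1 and TNF group were uneven. Of 26 listed genes 25 were measured against InjuryMono2, with 7 higher in all 12 mice and 0 lower, and against Macrophage 16 of 26 were higher and 1 lower. Il1b ranged from 55.8 through a median of 85.1 to 156 UMIs per cell in InjuryMono1, from 42.6 through 51.3 to 63.6 in InjuryMono2, and from 7.17 through 15.8 to 30.5 in Macrophage. It was higher in InjuryMono1 than in InjuryMono2 in 11 of 12 mice, and the 2 types overlapped. ActNeutrophil held more than any of them, 350 ± 47.6 (SD, n = 12 mice). Il1a, for the other IL-1 receptor agonist, averaged 4.04 ± 2.00 in InjuryMono1 and 0.561 ± 0.376 in InjuryMono2, without overlap. Il1rn, which encodes the antagonist of the same receptor, averaged 11.9 ± 4.99 and 4.69 ± 0.642, also without overlap. Agonist and antagonist transcripts were thus both higher in InjuryMono1.

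Other members of that group gave no steady order. Tnf averaged 4.92 ± 7.42 in InjuryMono1, 1.18 ± 0.461 in InjuryMono2 and 2.47 ± 1.65 in Macrophage, and was higher than InjuryMono2 in only 7 of 12 mice. The highest Tnf value, 26.0, came from the SZN-1326-p mouse 3 at 48 h, which had 18 InjuryMono1 cells. Il10, an anti-inflammatory cytokine, averaged 0.316 ± 0.463, 0.564 ± 0.250 and 1.61 ± 1.46, below Macrophage in all 12 mice. Osm, for oncostatin M, averaged 3.82 ± 1.30, 1.72 ± 0.278 and 0.809 ± 0.315 (SD, n = 12 mice, in the order InjuryMono1, InjuryMono2, Macrophage).

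Chemokine genes went both ways. Of 23 listed genes, 17 were measured against InjuryMono2, with 3 higher in all 12 mice (Cxcl2, Cxcl3 and Cxcl10) and 3 lower. Cxcl2 and Cxcl3 encode ligands of the neutrophil receptor CXCR2, and Cxcl10 encodes an interferon-induced ligand of CXCR3 on T cells. Cxcl3 ranged from 1.13 through a median of 9.61 to 23.1 UMIs per cell in InjuryMono1, and its mean was 9.83 ± 5.78, against 0.263 ± 0.189 in InjuryMono2 and 0.317 ± 0.357 in Macrophage (SD, n = 12 mice). Cxcl2 averaged 55.7 ± 28.5, 16.4 ± 3.70 and 22.5 ± 8.99, and Cxcl10 averaged 10.6 ± 4.96, 1.56 ± 1.04 and 2.10 ± 1.22. Cxcl1, another CXCR2 ligand, gave no steady order, higher than InjuryMono2 in 8 of 12 mice and lower than Macrophage in 8 of 12. Ccl9 was higher than Macrophage in 12 of 12 mice and Ccl6 in 11 of 12. Ccl7, Ccl8 and Ccl2, which attract monocytes, were lower than in Macrophage in all 12 mice: Ccl7 averaged 0.0714 ± 0.0684 in InjuryMono1 and 8.47 ± 3.89 in Macrophage, Ccl8 0.0353 ± 0.0957 and 14.5 ± 7.01, and Ccl2 1.32 ± 0.904 and 5.52 ± 1.56. ActNeutrophil held more Cxcl2 and Cxcl3 than InjuryMono1, 384 ± 86.3 and 36.7 ± 16.9.

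Cxcl3, Cxcl2 and Cxcl10 are shown with their promoters because they were the chemokines higher than InjuryMono2 in every mouse. The 250 bases before the annotated start are RefSeq sequence of GRCm38.p6, printed 5′ to 3′ on the gene's strand. Capitals mark matches, on either strand, to an NF-κB-like motif (GGG, a pair of any bases, TT, any base, CC) or to an interferon-response-like motif (GAAA, a pair of any bases, GAAA). Cxcl3 lies at chr5:90785851-90786100 on the plus strand, Cxcl2 at chr5:90903649-90903898 on the plus strand, and Cxcl10 at chr5:92348890-92349139 on the minus strand.
Cxcl3: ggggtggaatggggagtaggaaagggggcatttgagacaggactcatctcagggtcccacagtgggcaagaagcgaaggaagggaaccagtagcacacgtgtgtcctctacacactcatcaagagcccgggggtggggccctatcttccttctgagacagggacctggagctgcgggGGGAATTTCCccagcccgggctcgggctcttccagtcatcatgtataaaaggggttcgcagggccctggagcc
Cxcl2: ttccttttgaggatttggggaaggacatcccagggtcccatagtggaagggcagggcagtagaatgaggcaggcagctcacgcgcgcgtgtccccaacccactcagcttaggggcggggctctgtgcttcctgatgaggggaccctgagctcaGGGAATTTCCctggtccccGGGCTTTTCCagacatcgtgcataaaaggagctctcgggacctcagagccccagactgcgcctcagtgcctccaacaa
Cxcl10: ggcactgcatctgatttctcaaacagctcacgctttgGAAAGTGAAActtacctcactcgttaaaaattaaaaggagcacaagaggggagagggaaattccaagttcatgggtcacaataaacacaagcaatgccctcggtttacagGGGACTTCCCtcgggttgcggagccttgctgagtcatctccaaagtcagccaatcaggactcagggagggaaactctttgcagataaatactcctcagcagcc
Cxcl3 held 1 match to the first motif, Cxcl2 held 2, and Cxcl10 held 1 match to each motif. Of 27025 promoters of the same length, 4.0% held the first and 3.04% the second. No match was found in the windows of Il1b, Ly6c2, Chil3 or Slpi.

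The chemokines differed in how many cells held a UMI of them, a share that depends on depth. Cxcl2 was seen in 81.6% of cells (70.4% thinned), Cxcl10 in 29.8% (21.4%), Cxcl3 in 24.0% (15.3%) and Cxcl9, another CXCR3 ligand, in 13.2% (10.7%). Of TcellCD8_NK cells 10.0%, 14.3%, 1.08% and 0.717% held a UMI of the same 4 genes, in that order, and 6.84%, 9.89%, 0.380% and 0.380% when thinned. Cxcl9 and Cxcl10 were seen together in 73 of 658 cells (11.1%), Cxcl10 without Cxcl9 in 123 and Cxcl9 without Cxcl10 in 14. Most cells with Cxcl9 therefore also held Cxcl10.

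Interferon-response genes were higher than in either neighbour. Of 38 listed genes, 37 were measured, and 15 were higher than in InjuryMono2 and 21 higher than in Macrophage in all 12 mice, with 0 lower in each. Ifitm3, a membrane protein that blocks virus entry, averaged 36.2 ± 6.57, 18.7 ± 4.18 and 3.27 ± 1.30 in InjuryMono1, InjuryMono2 and Macrophage (SD, n = 12 mice). Gbp2, a guanylate-binding protein, averaged 6.04 ± 3.00, 1.62 ± 0.531 and 0.972 ± 0.633. Isg15, a ubiquitin-like modifier, averaged 4.38 ± 2.83, 1.33 ± 0.356 and 0.664 ± 0.391.

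Antimicrobial effectors were higher too, with 10 of 17 measured genes (18 listed) above InjuryMono2 and 10 of 17 above Macrophage in all 12 mice, and 0 below. Slpi, which encodes a secreted protease inhibitor, led the genes higher than in InjuryMono2. It ranged from 5.87 through a median of 13.7 to 31.8 UMIs per cell in InjuryMono1, from 0.0893 through 0.361 to 2.52 in InjuryMono2, and from 0 through 0 to 0.0945 in Macrophage. Slpi was seen in 72.2% of InjuryMono1 cells, 11.0% of InjuryMono2 cells and 0.717% of TcellCD8_NK cells, and after thinning in 52.8%, 4.58% and 0%. Acod1, which makes itaconate, averaged 2.27 ± 1.52, 0.272 ± 0.173 and 0.0572 ± 0.0704, and Sod2, the mitochondrial superoxide dismutase, 9.33 ± 2.44, 2.70 ± 0.850 and 1.28 ± 0.379 (SD, n = 12 mice, in the order InjuryMono1, InjuryMono2, Macrophage). Nos2, the inducible nitric oxide synthase, was above 0 in InjuryMono1 of 8 of 12 mice and reached 1.69 in the SZN-1326-p mouse 1 at 24 h. It was seen in 4.41% of InjuryMono1 cells and 0.0824% of InjuryMono2 cells. Slpi, Hp and Acod1 are also neutrophil genes, with ActNeutrophil means of 42.7 ± 12.5, 22.5 ± 6.55 and 84.5 ± 24.8.

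**Figure D3:**
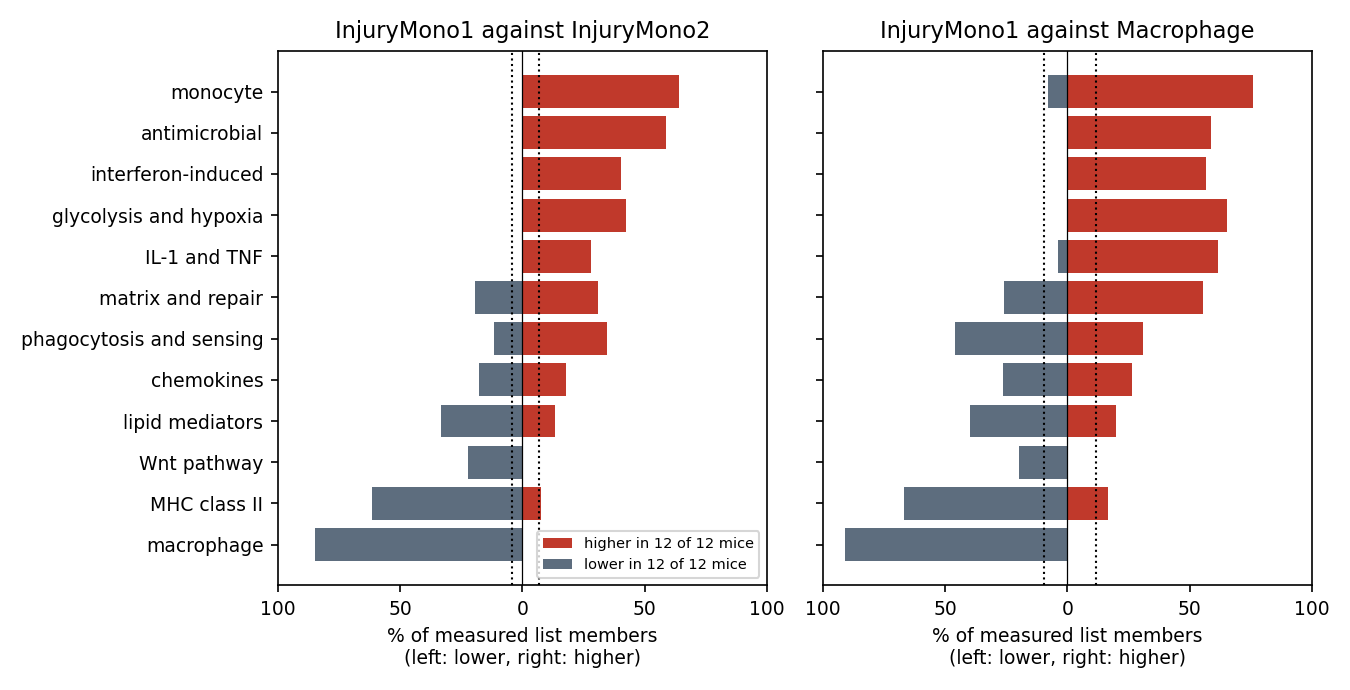
Share of the measured members of 12 gene lists that were higher (right) or lower (left) in InjuryMono1 in all 12 DSS mice, against InjuryMono2 and against Macrophage. Dotted lines give the same share over all genes, 6.82% and 4.24% in the left panel and 11.6% and 9.52% in the right one.

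Glycolysis and hypoxia genes followed the same direction. Of 28 listed genes 26 were measured, and 11 were higher than in InjuryMono2 and 17 higher than in Macrophage in all 12 mice, with 0 lower. Pkm, pyruvate kinase, averaged 10.6 ± 1.43, 4.93 ± 0.830 and 2.11 ± 0.495 in InjuryMono1, InjuryMono2 and Macrophage (SD, n = 12 mice), and InjuryMono1 overlapped neither neighbour. Hif1a, the oxygen-sensing transcription factor, averaged 7.15 ± 1.80, 5.24 ± 1.21 and 1.25 ± 0.279. Vegfa, a target of that factor and a vessel growth factor, averaged 1.97 ± 0.854 and 1.79 ± 0.391 in the injury monocytes, higher in InjuryMono1 in 6 of 12 mice, against 0.155 ± 0.111 in Macrophage.

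Matrix and repair genes divided. Of 27 listed genes, 26 were measured against InjuryMono2, with 8 higher in all 12 mice and 5 lower, and against Macrophage 15 were higher and 7 lower. Thbs1, for the matricellular protein thrombospondin-1, averaged 58.6 ± 19.6, 27.6 ± 6.78 and 1.29 ± 0.543, and Fn1, fibronectin, 9.10 ± 2.32, 3.55 ± 1.57 and 0.202 ± 0.224 (SD, n = 12 mice, in the order InjuryMono1, InjuryMono2, Macrophage). Inhba, which encodes the activin A subunit, averaged 6.03 ± 4.30, 0.347 ± 0.222 and 0.0122 ± 0.0224. Mmp13, a collagenase, was lower in InjuryMono1 than in Macrophage in all 12 mice, 0.0348 ± 0.0558 and 4.67 ± 2.29. Mmp19, a matrix metalloproteinase, averaged 2.50 ± 1.31, 1.09 ± 0.383 and 0.264 ± 0.122, higher than InjuryMono2 in 10 of 12 mice.

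Sensing receptors and lipid mediator genes went both ways. In the list of pattern recognition, phagocytosis and lysosome genes (26 of 28 measured), 9 were higher and 3 lower than in InjuryMono2, and 8 were higher and 12 lower than in Macrophage, in all 12 mice. Clec4e, the receptor Mincle, averaged 12.8 ± 3.22, 3.74 ± 0.671 and 0.231 ± 0.200, and Trem1, an amplifier of inflammatory signals, 3.53 ± 0.858, 1.11 ± 0.253 and 0.0324 ± 0.0397 (SD, n = 12 mice, same order). Alox5ap, needed for leukotriene synthesis, averaged 9.70 ± 1.46, 5.05 ± 0.752 and 0.942 ± 0.333. Hpgds, which makes prostaglandin D2, averaged 0.0279 ± 0.0342, 0.514 ± 0.193 and 3.55 ± 0.521. Ltb4r1, a receptor for leukotriene B4, averaged 1.70 ± 0.365, 0.566 ± 0.181 and 0.0290 ± 0.0315, and InjuryMono1 overlapped neither neighbour.

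Most listed genes of the Wnt pathway, which SZN-1326-p is meant to activate, were thinly expressed. Of 27 listed receptors, co-receptors, transcription factors, feedback genes and other members only 9 reached the measured level in the set against InjuryMono2. Ctnnb1 and Tcf7l2 were among those measured, and each was higher than either neighbour in some mice and lower in others. Fzd5, a Frizzled receptor, averaged 0.0888 ± 0.0596 UMIs per cell in InjuryMono1, 0.101 ± 0.0773 in InjuryMono2 and 0.103 ± 0.0691 in Macrophage (SD, n = 12 mice). Lrp6, a Wnt co-receptor, averaged 0.213 ± 0.0808, 0.374 ± 0.0935 and 1.68 ± 0.296, lower than either neighbour in all 12 mice. Axin2, a widely used Wnt target, was above 0 in InjuryMono1 of 3 of 12 mice, at most 0.0477, and was not kept for testing. Between SZN-1326-p and anti-GFP mice 7 Wnt genes could be tested in InjuryMono1 and none passed at either time or over both. Of all 7774 genes 0 passed at 24 h, 1 at 48 h and 7 over both, so this does not set the list apart. At 48 h 2 of the 7 had an unadjusted p under 0.05, each lower in SZN-1326-p mice, against 708 of 7774 in either direction.

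Few genes within InjuryMono1 separated SZN-1326-p from anti-GFP mice. Mmp19, Braf, Wnk1 and Cux1 fell, and Gpx2, Epcam and Krt8 rose, over both times together (7 of 7774 genes, 0.09%; limma, Benjamini-Hochberg adjusted p under 0.05). The 3 that rose were 0.0386% of all genes and the 4 that fell 0.0515%. At 24 h alone limma called 0 genes, with 464 at an unadjusted p under 0.05, and voom weights on the recovered UMIs called 3. At 48 h alone it called Mmp19 (0.0129% of genes). Without the SZN-1326-p mouse 1 at 48 h, which held the B and plasma cell markers, it called 25 genes at 48 h and 10 over both times. The median standard error of a log2 change was 0.32 at a single time and 0.23 over both, so small changes were not detectable with 3 mice a group and 18 cells in the smallest.

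Mmp19 (chromosome 10, 128790910 to 128800824) was called over both times and at 48 h. In SZN-1326-p mice it held 1.91, 1.05 and 1.69 UMIs per cell at 24 h, against 3.24, 3.90 and 2.09 in anti-GFP mice. At 48 h it held 0.793, 1.63 and 1.39 in SZN-1326-p mice, against 3.78, 3.85 and 4.69 in anti-GFP mice. The arms did not overlap at either time. Its log2 change was -1.30 ± 0.19 over both times (SE, adjusted p = 0.00201) and -1.66 ± 0.27 at 48 h (adjusted p = 0.0162). The call over both times held without each mouse in turn and ended only with a term for each library's transcript-length difference (log2 -1.09, adjusted p = 0.0858; range over all alternatives 0.000574 to 0.0858). The call at 48 h ended without anti-GFP mouse 1 (adjusted p = 0.0933), anti-GFP mouse 3 (adjusted p = 0.126) or SZN-1326-p mouse 3 (adjusted p = 0.0534), with a pseudocount of 0.01 (adjusted p = 0.0903) and with no filter (adjusted p = 0.141). In InjuryMono2 Mmp19 held 0.953, 1.58 and 0.968 in SZN-1326-p mice and 0.895, 0.782 and 1.01 in anti-GFP mice at 24 h, which overlap. At 48 h InjuryMono2 held 1.11, 0.644 and 0.595 in SZN-1326-p mice and 1.24, 1.89 and 1.39 in anti-GFP mice, which do not. The difference between the 2 types' effects did not pass (log2 -1.02 ± 0.34, SE, adjusted p = 0.794).

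Braf, a kinase of the MAPK cascade, held 0.482, 0.355 and 0.694 UMIs per cell in SZN-1326-p mice at 24 h, against 1.01, 1.31 and 1.10 in anti-GFP mice. At 48 h it held 0.453, 0.386 and 0.531 in SZN-1326-p mice, against 0.931, 0.952 and 0.944 in anti-GFP mice. The arms did not overlap (log2 -0.98 ± 0.18 over both times, SE, adjusted p = 0.0266). Wnk1, a kinase of ion transport, and Cux1, a homeobox transcription factor, fell by 0.79 ± 0.15 and 0.77 ± 0.15 on the log2 scale (SE, adjusted p = 0.0375 each). In the annotated T cells, pooled, Wnk1 averaged 3.34 in SZN-1326-p mice and 6.74 in anti-GFP mice at 24 h, with overlap. At 48 h it averaged 3.74 and 5.55, without overlap. Braf there averaged 0.310 and 0.501, then 0.241 and 0.481. Cux1 averaged 0.699 and 0.730, then 0.479 and 0.860. Braf and Cux1 overlapped at both times, and the arms were not tested in T cells. Leaving out 1 mouse ended the call of Braf for 6 of 12 mice, with adjusted p up to 0.151 without anti-GFP mouse 2 at 24 h. It ended those of Wnk1 and Cux1 for 10 of 12, with adjusted p up to 0.155 and 0.162. The balance of long and short transcripts differed between the libraries. With genes split into 3 equal groups by transcript length, the mean log2 deviation of the longest group minus that of the shortest was -0.11, -0.21 and -0.15 in SZN-1326-p mice at 48 h, against -0.001, -0.010 and 0.042 in anti-GFP mice. At 24 h it was 0.23, -0.24 and -0.14 in SZN-1326-p mice, against 0.30, 0.36 and -0.06 in anti-GFP mice. With a term for that difference, measured in fibroblasts, none of the 7 genes passed over both times. The log2 changes were then -1.09 for Mmp19, -0.97 for Braf, -0.55 for Wnk1, -0.62 for Cux1, 1.55 for Gpx2, 1.29 for Epcam and 0.93 for Krt8, with adjusted p of 0.0858 to 0.185.

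The genes that rose are epithelial. Gpx2, a glutathione peroxidase of gut epithelium (chromosome 12, 76792333 to 76795554), held 1.06, 1.28 and 0.989 UMIs per cell in SZN-1326-p mice at 24 h, against 0.253, 0.182 and 0.396 in anti-GFP mice. At 48 h it held 0.557, 1.11 and 1.04 in SZN-1326-p mice, against 0.119, 0.483 and 0.113 in anti-GFP mice. No SZN-1326-p mouse overlapped an anti-GFP mouse (log2 1.70 ± 0.25 over both times, SE, adjusted p = 0.00201). Epcam, an epithelial adhesion protein, and Krt8, a keratin, rose by 1.25 ± 0.22 and 0.93 ± 0.19 on the log2 scale (SE, adjusted p = 0.0211 and 0.0435). Gpx2 held without each mouse in turn and Epcam without 8 of 12, with adjusted p up to 0.086 without SZN-1326-p mouse 2 at 24 h. Krt8 held without only 2 of 12, with adjusted p up to 0.195 without anti-GFP mouse 1 at 48 h.

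The summed level of 15 epithelial markers also lay higher in SZN-1326-p mice. Of 13 markers tested over both times 2 were called higher (Epcam and Krt8), against 7 of all 7774 genes in either direction. An unadjusted p under 0.05 was found for 9 markers, all higher, against 799 of all 7774 genes in either direction. The median log2 change was 0.74, against -0.047 for all genes. The goblet cell genes Muc2, Tff3 and Fcgbp had log2 changes of -0.94, -0.69 and -0.84 at 48 h. Summed in InjuryMono1 the 15 came to 8.35, 10.9 and 7.73 UMIs per cell in SZN-1326-p mice at 24 h, against 6.92, 6.71 and 6.26 in anti-GFP mice, with no marker at 0. At 48 h it came to 7.20, 8.56 and 12.9 in SZN-1326-p mice, against 3.07, 4.76 and 6.49 in anti-GFP mice. Fibroblasts, which are not epithelial either, held 7.12, 8.78 and 6.84 of the same sum in SZN-1326-p mice and 6.33, 6.61 and 5.78 in anti-GFP mice at 24 h. At 48 h they held 5.04, 3.80 and 11.0 in SZN-1326-p mice and 1.41, 4.09 and 3.72 in anti-GFP mice. In InjuryMono2 Gpx2 averaged 1.57 ± 0.363 in SZN-1326-p mice and 0.275 ± 0.0714 in anti-GFP mice at 24 h (SD, n = 3 each). Of the InjuryMono1 cells 86.7% held 2 or more epithelial markers, against 86.2% of InjuryMono2 and 85.8% of Macrophage cells. The part of free epithelial RNA in these calls was not tested.

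**Figure D4:**
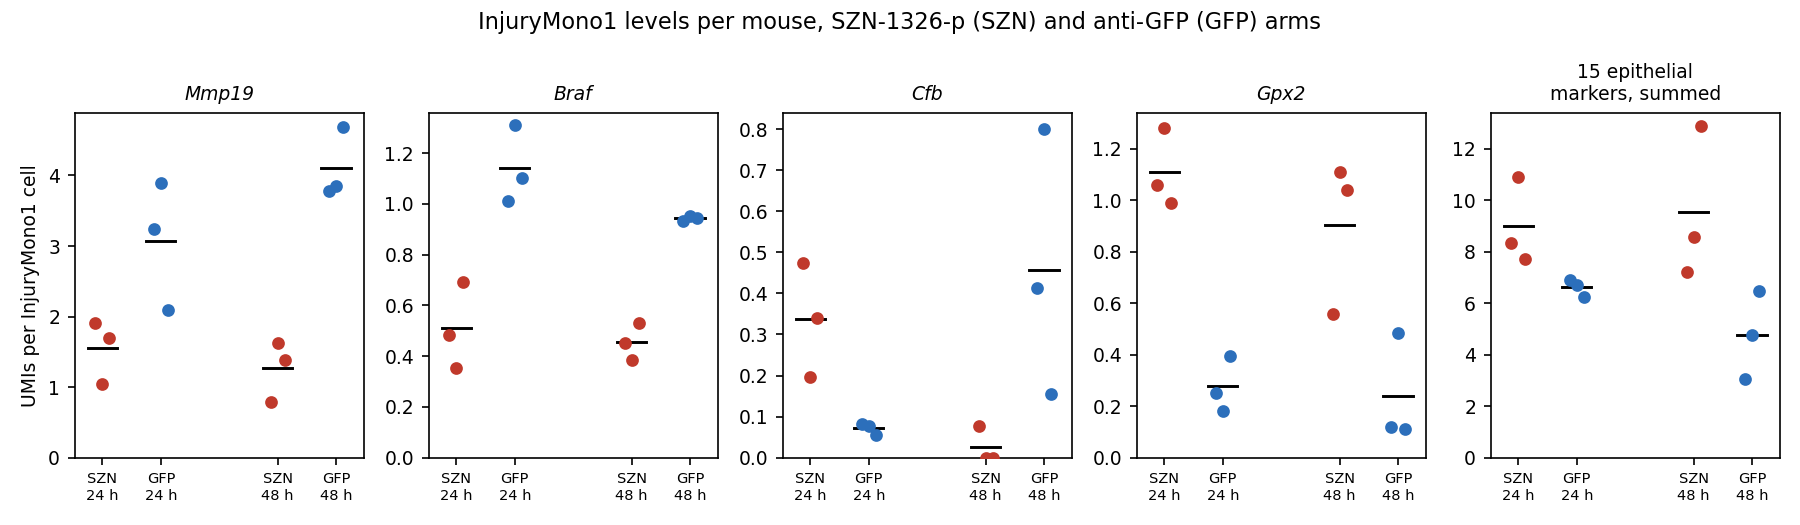
UMIs per InjuryMono1 cell for Mmp19, Braf, Cfb and Gpx2, and the sum of 15 epithelial markers, in each SZN-1326-p (SZN) and anti-GFP (GFP) mouse at 24 h and 48 h; bars are group means. Mmp19 and Braf lie lower and Gpx2 higher in SZN-1326-p mice at both times, and the epithelial sum lies higher with Gpx2.

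One gene was called for an effect of SZN-1326-p that differed between the times, and the call depended on the settings. Cfb, complement factor B, held 0.475, 0.197 and 0.341 UMIs per cell in SZN-1326-p mice at 24 h, against 0.0828, 0.0764 and 0.0559 in anti-GFP mice. At 48 h it held 0.0778, 0 and 0 in SZN-1326-p mice, against 0.413, 0.799 and 0.156 in anti-GFP mice. The listed values were higher in SZN-1326-p mice at 24 h, without overlap, and lower in them at 48 h. The difference of the effects was log2 -3.32 ± 0.56 (SE, limma, adjusted p = 0.0354; 1 of 7774 genes, 0.0129%). The level is low, below the 0.5 UMIs per cell set for naming genes, and Cfb is named because it was the single call. Its values reached the 0.1 required for testing only in SZN-1326-p mice at 24 h and anti-GFP mice at 48 h. The call ended with a pseudocount of 0.01 (log2 -6.24, adjusted p = 0.263), with no filter (adjusted p = 0.319), with voom weights (log2 -4.71, adjusted p = 0.997) and with means of the deposited log2 values (log2 -0.36, adjusted p = 0.079). It held without 3 of 12 mice in turn, with adjusted p up to 0.324 without SZN-1326-p mouse 1 at 24 h. A count of 0 over the 19 and 18 cells of the mice at 0 allows up to 0.158 and 0.167 UMIs per cell, before scaling. The lowest anti-GFP value at 48 h, 0.156 in mouse 3, is scaled by size factors, so the comparison is rough. With limits and value this near, the groups cannot be said to be apart at 48 h. Timp1, an inhibitor of metalloproteinases, and Lcn2, the siderophore-binding lipocalin, had differences of -2.94 ± 0.55 and -2.85 ± 0.55 and did not pass (adjusted p = 0.0764 each).

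Interferon-response genes had mostly higher values in SZN-1326-p mice at 24 h, and none passed the test. Of 37 tested members 11 had an unadjusted p under 0.05 with higher values in SZN-1326-p mice and 0 with lower. Over all genes 464 of 7774 did, in either direction. The median log2 change of the list was 0.66, against -0.016 for all genes. At 48 h the median was -0.091, against -0.071 for all genes, and 0 members had an unadjusted p under 0.05. Isg15 held 11.5, 5.20 and 6.72 UMIs per cell in SZN-1326-p mice at 24 h, against 2.91, 2.66 and 3.04 in anti-GFP mice, which do not overlap (log2 1.34 ± 0.64, SE, adjusted p = 0.803). Cxcl9 held 26.4, 5.28 and 7.93 in SZN-1326-p mice, against 1.09, 6.70 and 2.29 in anti-GFP mice, and these overlap. The MHC class II list, with Cd40, Cd80 and Cd86 among its 10 tested genes, had mostly higher values as well and 0 calls. Its median was 0.59, against the same -0.016, and 5 had an unadjusted p under 0.05, all higher. Ciita, Cd80 and H2-DMb1 went the other way (log2 -0.93, -0.20 and -0.034). H2-Aa held 7.74, 9.33 and 8.94 in SZN-1326-p mice at 24 h, against 7.04, 3.13 and 3.38 in anti-GFP mice (log2 1.02 ± 0.29, SE, adjusted p = 0.562).

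At 48 h values in 2 other lists were mostly lower in SZN-1326-p mice. Of 24 tested matrix and repair genes 1 (Mmp19) was called lower and 7 had an unadjusted p under 0.05, all lower, with a median log2 change of -0.55. Over all genes 708 of 7774 had an unadjusted p under 0.05 in either direction, 0.0129% were called and the median was -0.071. Thbs1 held 36.5, 56.9 and 39.0 UMIs per cell in SZN-1326-p mice, against 75.9, 77.4 and 74.8 in anti-GFP mice, without overlap (log2 -0.81 ± 0.22, SE, adjusted p = 0.238). Of 11 tested genes on the neutrophil list 0 were called and 7 had an unadjusted p under 0.05, all lower, with a median of -0.80. Slpi, which is on the antimicrobial list, held 15.2, 7.46 and 5.87 in SZN-1326-p mice, against 24.4, 31.8 and 12.8 in anti-GFP mice, which overlap. The neutrophil list summed to 8.27, 6.54 and 8.78 in SZN-1326-p mice and 12.8, 17.0 and 14.3 in anti-GFP mice. Its defining members Cxcr2, Retnlg and Ly6g were near 0.

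**Figure D5:**
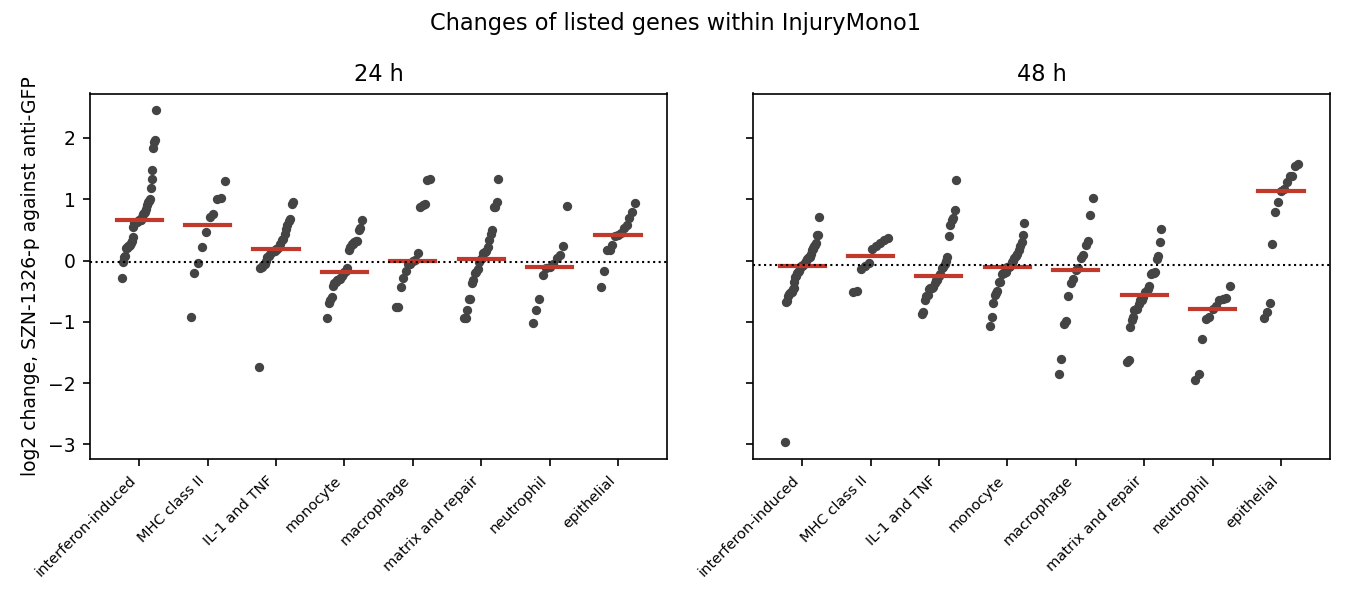
Log2 change of each tested member of 8 gene lists within InjuryMono1, SZN-1326-p over anti-GFP, for 24 h (left) and 48 h (right). Red bars are list medians and the dotted line is the median of all 7774 genes; interferon-induced genes have a median of 0.66 at 24 h and -0.091 at 48 h.

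The genes that name the type did not separate the arms. Ly6c2 held 8.39, 4.86 and 4.43 UMIs per cell in SZN-1326-p mice at 24 h, against 2.85, 3.83 and 5.81 in anti-GFP mice, and at 48 h 5.17, 5.05 and 7.49 in SZN-1326-p mice, against 4.06, 4.35 and 6.59 in anti-GFP mice. The values overlapped at both times (log2 0.37 ± 0.19 over both, SE, adjusted p = 0.516). Il1b held 93.8, 115 and 115 in SZN-1326-p mice at 24 h, against 156, 87.2 and 68.1 in anti-GFP mice. At 48 h it held 60.8, 55.8 and 59.1 in SZN-1326-p mice, against 59.0, 105 and 82.9 in anti-GFP mice. These also overlapped at both times (log2 -0.16 ± 0.17 over both, SE, adjusted p = 0.786). Of the 25 monocyte identity genes 0 passed at either time.

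Time alone gave no call. In anti-GFP mice limma called 0 of 7774 genes between 48 h and 24 h, with 314 at an unadjusted p under 0.05, and voom weights called 2. The share of InjuryMono1 among immune cells at 48 h against 24 h, within arms, differed by log2 -0.50 (two-sided exact permutation, p = 0.1, adjusted p = 0.275). A test of whether SZN-1326-p acted differently on InjuryMono1 and InjuryMono2 called 0 of 8534 genes (459 at an unadjusted p under 0.05, voom weights 0).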

How the data were processed

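The authors deposited log2 values (UMIs scaled by a size factor per cell, with 1 added) and an annotation of cells; its treated arm, SWAP, was taken as SZN-1326-p. Per the submitters' processing notes, Cell Ranger 3.0.2 and mm10 were used. The size factors and doublet treatment are not given in the sources used here. Undoing the log gave whole UMIs in 100% of 60867816 entries (tolerance 1e-06). InjuryMono1 cells of each mouse were averaged, and log2 of the mean plus 0.1 was tested with limma 3.58.1 (trend, robust) in R 4.3.3 over the 12 DSS mice, for genes with a mean of at least 0.1 in 3 mice, with Benjamini-Hochberg adjustment at 0.05. Since the deposited unit was log2, voom on recovered UMIs was an alternative only. Shares were tested by two-sided exact permutation within time. The scripts were tested on simulated data. Members and gene lists were chosen with earlier results of these data known. Named genes were the up to 12 of largest difference per type and direction or up to 10 per tested contrast, the up to 4 highest of each list and a fixed set; others were chosen after their values were seen, as were the motifs. Gene positions are from GENCODE vM21 (mm10).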

Additional observations from a re-analysis of the deposited data

Results flagged for a closer look

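Cfb in InjuryMono1 was picked out because the effect of SZN-1326-p differed between the times by a test of that difference, log2 -3.318 (48 h minus 24 h). Its values, and the 4 settings that end the call, stand in the report. Groups of 2 or 3 mice were too small for a check of single mice that stand apart.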

How the results depend on the processing

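Counts of genes called within InjuryMono1 between SZN-1326-p and anti-GFP mice moved with the settings, from 0 at 24 h, 1 at 48 h, 7 over both times and 1 for the difference between the times. Voom weights gave 3, 6, 10 and 0, and means of the deposited log2 values 1, 5, 15 and 0. A pseudocount of 0.01 gave 0, 0, 4 and 0, and no filter 0, 0, 2 and 0. Without the 2 SZN-1326-p libraries of highest mitochondrial share the counts were 0, 3, 4 and 4. With a transcript-length term they were 0, 1, 0 and 2, and without cells holding markers of other non-epithelial lineages 0, 1, 5 and 2; both settings were chosen after seeing the data. Leaving out 1 mouse gave 0 to 4, 0 to 25, 2 to 14 and 0 to 5, and for anti-GFP mice at 48 h against 24 h, and the difference from InjuryMono2, 0 to 0. At 48 h the count was 25 without SZN-1326-p mouse 1 and over both times 14 without anti-GFP mouse 3 of 24 h. Voom gave 2 genes between the times in anti-GFP mice. A replicate block gave 11, 23, 31 and 7. Across genes, the deviations of same-numbered mice from their group means correlated at r of -0.0925 to 0.164. With 3 mice a group these values cannot show whether the numbers pair the mice. The cause of the moves in these counts was not tested.

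The share of InjuryMono1 in SZN-1326-p mice kept its direction in every setting run (log2 -0.98 to -0.76 leaving out 1 mouse). It passed only as a share of all cells (-1.69) or of the monocyte and macrophage types (-0.85). The latter was adjusted over 3 types instead of 11. Against uninjured mice the anti-GFP share was 4.59 to 5.61 higher leaving out 1 mouse and 5.29 higher with the replicate block, which could not pass (exact permutation, p = 0.125). The difference of 48 h against 24 h was -0.62 to -0.41 leaving out 1 mouse and reversed to 0.79 without cells holding 2 markers of another lineage, a filter that removed 88.3% of InjuryMono1 cells and was not run for genes. Scaling by median of ratios made 496 genes higher and 421 lower than in InjuryMono2, and 863 higher and 1049 lower than in Macrophage. Groups of 3 mice with 18 to 117 cells limit what could be detected.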
